A study of Mus musculus with 10 samples.

Results

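Livers that received lipid nanoparticles with a control siRNA were compared with livers that received buffer alone, to see what the carrier and a non-targeting RNA leave behind in liver RNA on day 5. The comparison holds 6 of the 10 arrays of the series, chosen by title: 2 livers given phosphate-buffered saline (PBS) and 4 given the control siRNA. All mice were male C57BL/6 NHsd, an inbred laboratory strain, and every injection went into the tail vein. The control siRNA was given in particles at 1.5 mg/kg. The other 4 arrays are livers given particles with siRNAs against the Rab5 genes at 1.5 mg/kg, taken on the same day, and they enter here through the estimate of the spread and for a few values side by side. The sample titles call the control RNA scrambled and non-targeting, whereas the series' design text names luciferase, so it is called the control siRNA. Neither an empty particle nor an uninjected mouse is among the groups, so effects of the particle, of the RNA in it and of anything else that differed between these injections cannot be told apart. The titles number the livers but do not state that they are separate mice, and a p-value here measures the spread between these samples.

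Lipid nanoparticles in blood take up apolipoprotein E and enter hepatocytes by endocytosis, after which a part of the siRNA leaves the endosome and is loaded into Argonaute 2. Double-stranded RNA can also be read as a sign of infection, by Toll-like receptors in endosomes (Tlr3, Tlr7) and by cytosolic sensors such as Ddx58 (RIG-I), which leads to interferon and to the transcription of interferon-stimulated genes. Liver injury and inflammatory cytokines raise acute phase proteins such as serum amyloid A, and hepatocytes, which rarely divide in the adult, can re-enter the cell cycle after injury.

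RNA was measured with Affymetrix 3' expression arrays, whose probe sets read the 3' end of a transcript. Values are on the log2 scale, so that a difference of 1 is 2-fold. Of 45037 probe sets other than controls, 24281 lay above the median of the table (4.33) in at least 2 arrays, and they gave 12855 genes. The values of these genes correlated with r = 0.99 between both PBS arrays, between 0.986 and 0.991 within the control siRNA group and between 0.984 and 0.991 from one group to the other (across genes, which are not independent replicates). The mean level of the hepatocyte markers was high in all livers, with Alb (albumin) between 13.89 and 14.08 over the 6 arrays. The difference between the 3' and the 5' probe sets of Gapdh, a sign of RNA integrity, was 2.15 and 2.58 in the PBS arrays and 2.19, 2.86, 2.32 and 2.26 in the control siRNA arrays. The number of arrays limits the precision: the median standard error (SE) of a gene's difference was 0.144, and the median reach of its 95% interval on either side was 0.31.

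No gene of the 12855 passed the threshold of an adjusted p under 0.05 (limma, Benjamini-Hochberg; 0 genes, 0%), and the lowest adjusted p was 0.0808. At an unadjusted p under 0.05 stood 554 genes (4.31%), 305 of them with higher values after control siRNA (2.37%) and 249 with lower values (1.94%). Of the 305 higher ones 34 passed the filter on low values only through control siRNA arrays, so that the filter itself favoured a higher value in them. For 98.3% of the genes (12632) the 95% interval of the difference lay within 2-fold in both directions. By the same test 2993 genes (23.3%) were called between the Rab5 siRNA and control siRNA groups and 2201 genes (17.1%) between Rab5 siRNA and PBS. The count of 0 was not the same under every treatment of the arrays. It became 18 without control siRNA replicate 4, 4 without control siRNA replicate 1, 3 with array weights, 2 after a further quantile normalization and 1 with the replicate number as a block.

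**Figure D1:**
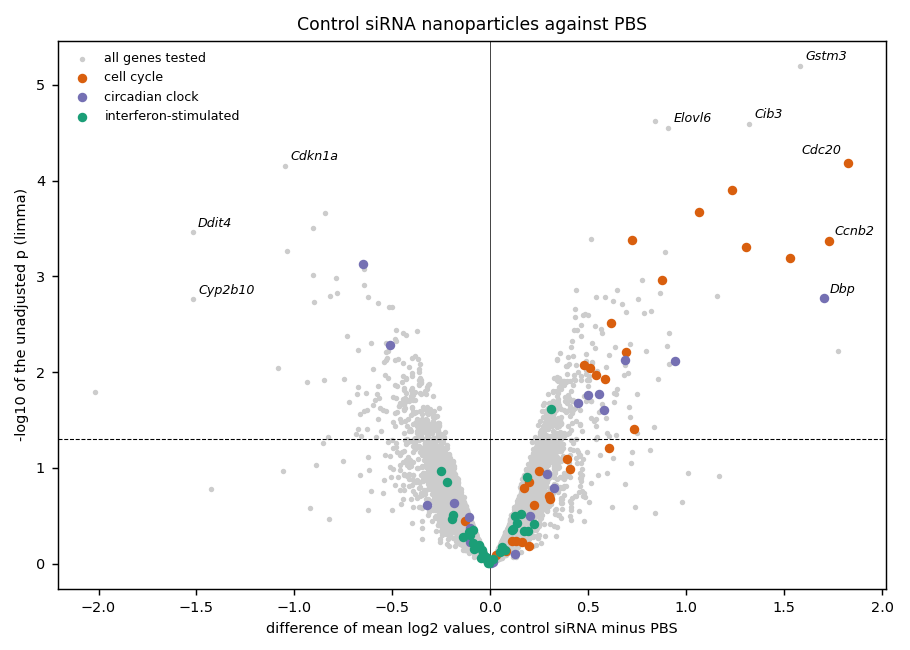
Difference of the group means (log2, control siRNA minus PBS) on the horizontal axis against -log10 of the unadjusted p (limma) on the vertical axis for 12855 genes. Each point is a gene, colours mark members of 3 gene lists, and the dashed line is a p of 0.05. Many cell cycle genes lie on the right, and the interferon-stimulated genes lie between -0.25 and 0.31.

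The genes with the lowest p-values come next, by a rule that took the 12 lowest among higher and the 12 lowest among lower genes whose 2 groups do not overlap, so that the lack of overlap in the genes it named is set by the choice. Arrays of both groups did not overlap for 845 higher genes (6.57% of all genes) and 825 lower genes (6.42%). Gstm3, a glutathione S-transferase of the mu class, which conjugates glutathione to electrophiles, came first. It stood at 9.02 and 9.15 after PBS and at 10.50, 11.005, 10.93 and 10.22 after control siRNA. All 4 control siRNA livers lay more than 1 log2 unit above both PBS livers. The difference was 1.58 (SE 0.218, 95% interval 1.11 to 2.05, adjusted p = 0.0808 by limma), about 2.99-fold, and a dimmer Gstm3 probe set differed by 0.90. Genes of the mu class are near copies, and the signal of a probe set can come from several of them. Gstm1 stood at 11.98 and 11.80 after PBS and at 12.44, 12.75, 12.68 and 12.27 after control siRNA, a difference of 0.64 (SE 0.160, adjusted p = 0.602 by limma). The other 3 Gstm1 probe sets differed by 0.65 to 0.81, and Gstm4 differed by 0.49. Of 27 measured genes of conjugation 3 lay higher at an unadjusted p under 0.05 (2.37% of all genes did), which are these 3, and 0 lay lower (1.94%). The median over the 27 was 0.05, against -0.01 over all genes. The NRF2 and antioxidant list, which holds the enzymes that oxidative stress is known to raise, had 1 of 20 genes higher (the malic enzyme Me1, 0.44) and 0 lower, with Nqo1 at 0.32, Hmox1 at -0.10 and a median of 0.02.

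Elovl6, which elongates saturated and monounsaturated fatty acids and belongs to new fat synthesis, stood at 7.64 and 7.37 after PBS and at 8.13, 8.51, 8.52 and 8.49 after control siRNA. Control siRNA replicate 1 was the lowest of its group, and the difference was 0.91 (SE 0.145, 95% interval 0.59 to 1.22, adjusted p = 0.0899 by limma). Its other probe set differed by 1.02. Cib3, a calcium and integrin binding protein, stood at 4.50 and 4.30 after PBS and at 5.40, 5.84, 5.98 and 5.65 after control siRNA, a difference of 1.32 (SE 0.209, adjusted p = 0.0899 by limma). Cdca5 (sororin), which holds sister chromatids together, stood at 3.95 and 4.00 after PBS and at 4.76, 4.78, 5.05 and 4.67 after control siRNA. Its difference was 0.84 (SE 0.132, adjusted p = 0.0899 by limma), but its other probe set differed by 0.02 only. Myct1 (0.51, other probe sets 0.20 and 0.05) was a further gene of the 12, and the 7 others were Cdc20, Ccna2, Cdk1, Rrm2, Ccnb2, Ube2c and Gas2l3, which except Gas2l3 (0.89, other probe sets 0.23 and 0.14) belong to the cell cycle list.

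**Figure D2:**
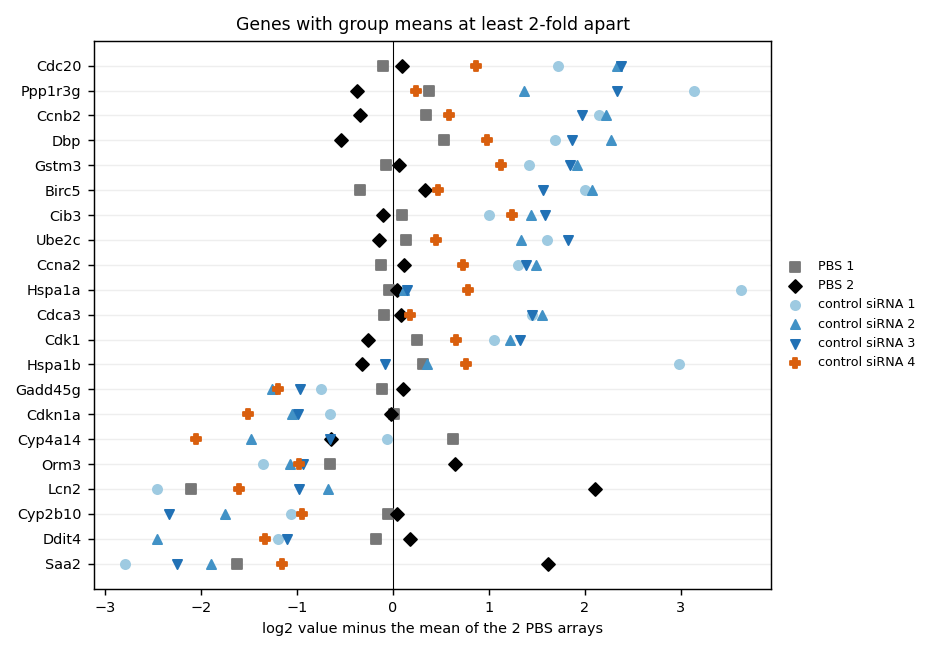
Values of the 21 genes whose group means lay at least 2-fold apart, as log2 value minus the mean of the 2 PBS arrays (horizontal axis), with 1 symbol per array. For Cdc20, Gstm3, Cib3, Ccna2 and Cdk1 all control siRNA arrays lie right of both PBS arrays, which the rule that named them required. For Hspa1a and Hspa1b control siRNA replicate 1 stands apart, and for Saa2 and Lcn2 PBS replicate 2 does.

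Group means lay at least 2-fold apart for 13 higher genes (0.101%) and 8 lower genes (0.0622%). The higher ones were Birc5, Ccna2, Ccnb2, Cdc20, Cdca3, Cdk1, Cib3, Dbp, Gstm3, Hspa1a, Hspa1b, Ppp1r3g and Ube2c, and the lower ones Cdkn1a, Cyp2b10, Cyp4a14, Ddit4, Gadd45g, Lcn2, Orm3 and Saa2. Cdca3, Cyp4a14 and Hspa1a fall outside the rule and were named after their values were seen. Hspa1a and Ppp1r3g passed the filter only through control siRNA arrays, and 11 higher genes are left without them. These counts moved with the array left out: 22 higher and 29 lower genes without PBS replicate 1, and 20 higher without control siRNA replicate 4.

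Genes of the cell cycle lay higher as a group after control siRNA. Of 34 listed genes 33 were on the array and 31 passed the filter, and 15 of the 31 lay higher at an unadjusted p under 0.05 (2.37% of all genes did) while 0 lay lower. The median difference was 0.48, against -0.01 over all genes, and Mcm3 (-0.13) was the single member below 0. Of the 15, Ccnb2, Birc5, Nusap1 and Bub1b (4 genes) lay below the filter's limit in both PBS livers and passed through siRNA arrays of both kinds, which favours a higher value in them. With no filter the count was 15 of the 33 genes on the array. The mean level of the list was 5.04 and 5.03 in the PBS livers and 5.65, 5.78, 5.73 and 5.28 in the control siRNA livers. Every control siRNA liver lay above both PBS livers, and replicate 4 was nearest to them. Of the 31 members 9 lay below the filter's limit in both PBS livers, so the filter favoured a higher level and median of the list. No member passed the test after adjustment over all genes with all 6 arrays.

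The members with the largest differences were Cdc20, Ccnb2, Birc5 and Ube2c, followed by Ccna2 and Cdk1. Cdc20, which activates the anaphase-promoting complex, stood at 5.59 and 5.79 after PBS and at 7.41, 8.02, 8.06 and 6.55 after control siRNA. The difference was 1.83 (SE 0.318, 95% interval 1.14 to 2.51, adjusted p = 0.149 by limma), about 3.55-fold. Its other 2 probe sets differed by 1.36 and 0.09, so they do not give 1 size. Ccnb2, the mitotic cyclin B2, stood at 3.82 and 3.13 after PBS and at 5.62, 5.69, 5.44 and 4.06 after control siRNA, a difference of 1.73 (SE 0.370, adjusted p = 0.388 by limma). Its PBS values lie below the median of the table, where small signals are compressed. Ube2c, the ubiquitin-conjugating enzyme of the anaphase-promoting complex, stood at 4.93 and 4.64 after PBS and at 6.39, 6.12, 6.61 and 5.24 after control siRNA (1.31, SE 0.284). Birc5 (survivin), a member of the chromosomal passenger complex, stood at 3.24 and 3.91 after PBS and at 5.58, 5.65, 5.14 and 4.05 after control siRNA (1.53, SE 0.343). In all of these genes replicate 4 was the lowest control siRNA array. The rule took them for groups that do not overlap, so its place above both PBS arrays was set by the choice. Nusap1, which bundles spindle microtubules, differed by 0.87 and the kinase Plk1 by 0.69. Other genes of mitosis had small differences, with intervals that include 0: the spindle motor Kif11 stood at 0.08, the checkpoint kinase Bub1 at 0.19, Aurkb at 0.30, the kinetochore motor Cenpe at 0.39 and Kif20a at 0.40. Cell cycle genes other than Cdc20, Ccna2, Cdk1, Rrm2, Ccnb2, Ube2c, Birc5, Mki67 and Cdca5 were named after their values were seen.

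Values of further cyclins, kinases and genes of DNA replication follow. Ccna2, cyclin A2, stood at 4.52 and 4.76 after PBS and at 5.95, 6.13, 6.03 and 5.37 after control siRNA, a difference of 1.23 (SE 0.230, adjusted p = 0.231 by limma). Its other probe set differed by 0.34 only. Cdk1, the kinase that drives entry into mitosis, stood at 5.45 and 4.94 after PBS and at 6.24, 6.41, 6.52 and 5.86 after control siRNA, a difference of 1.06 (SE 0.210, adjusted p = 0.308 by limma). Rrm2, a subunit of ribonucleotide reductase, stood at 5.77 and 6.21 after PBS and at 6.52, 6.84, 6.78 and 6.70 after control siRNA (0.72, SE 0.154). Ccnd1, the cyclin of G1 phase, differed by 0.48. Among subunits of the replicative helicase Mcm6 differed by 0.61, while Mcm2 (0.16), Mcm4 (0.30), Mcm5 (0.25) and Mcm7 (0.03) and the sliding clamp Pcna (0.11) had intervals that include 0. The other Mcm2 probe set differed by 0.49, and those of Mcm7 by -0.12 to 0.26. Mki67, the proliferation marker, stood at 4.45 and 4.91 after PBS and at 5.48, 5.58, 5.58 and 4.52 after control siRNA. Control siRNA replicate 4 lay between both PBS livers, and the difference of 0.61 (SE 0.298, adjusted p = 0.999 by limma) has an interval that includes 0.

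How many of these genes pass depends on control siRNA replicate 4. It had the lowest cell cycle level of its group (5.28), so leaving it out raises these differences by the choice of array. The calls that follow are therefore no added support. Without it 18 genes were called by limma, among them Cdc20 (2.15, adjusted p = 5.53e-04), Ccnb2 (2.11, 0.00102), Birc5 (1.88, 0.00158), Ube2c (1.59, 0.00199), Ccna2 (1.40, 0.0177) and Cdk1 (1.20, 0.0373). Cdca3, Aurka, Cdca8, Stmn1, Plk1, Prc1 and Cdca5, all with roles in cell division or its microtubules, were called too, with Gstm3, Cib3, Ppp1r3g, Rfx4 and Cdkn1a. Leaving out any 1 array gave 11 to 18 cell cycle genes at an unadjusted p under 0.05. Markers of other cell types on the same arrays were as follows. The mean level of 24 Kupffer cell and macrophage genes (24 of 24 measured) was 7.96 and 8.08 after PBS and 7.91, 8.20, 8.16 and 8.18 after control siRNA, with 1 of the 24 higher at an unadjusted p under 0.05. That of 9 monocyte and neutrophil genes (of 15 on the array) was 5.95 and 5.98 after PBS and 5.81, 6.68, 6.44 and 6.05 after control siRNA. Mpo, a member of the monocyte and neutrophil list, passed the filter only through the control siRNA arrays where it stood at 5.27 and 4.93. It stood at 4.08 in control siRNA replicate 1, so the filter favoured a higher level of this list in those other arrays. In both lists control siRNA replicate 1 was the lowest of the 6 arrays. Its cell cycle level was 0.62 above the PBS mean. The part of these cell types in the cell cycle values was not tested. In whole liver, more cells of a type and more RNA per cell cannot be told apart.

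Promoters of cell cycle genes are known to carry the cell cycle homology region, with the letters TTTGAA, and CCAAT boxes. The 250 bases before the transcription start are shown for 4 members with large differences, 5' to 3' on the strand of the gene, from RefSeq on GRCm38.p6. The 4 were taken by no stated rule, and Birc5 and Ccna2, whose differences were larger than that of Cdk1, are not shown. Capitals mark TTTGAA and CCAAT on either strand (TTCAAA and ATTGG on the other). The windows are chr4:118437344-118437593 for Cdc20 (minus strand), chr9:70421555-70421804 for Ccnb2 (minus), chr10:69352913-69353162 for Cdk1 (minus) and chr2:164769679-164769928 for Ube2c (plus).
Cdc20: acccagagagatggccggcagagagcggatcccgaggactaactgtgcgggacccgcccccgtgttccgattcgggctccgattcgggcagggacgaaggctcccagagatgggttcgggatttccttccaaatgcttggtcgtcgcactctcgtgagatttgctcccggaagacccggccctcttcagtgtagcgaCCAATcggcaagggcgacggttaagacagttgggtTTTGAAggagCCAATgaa
Ccnb2: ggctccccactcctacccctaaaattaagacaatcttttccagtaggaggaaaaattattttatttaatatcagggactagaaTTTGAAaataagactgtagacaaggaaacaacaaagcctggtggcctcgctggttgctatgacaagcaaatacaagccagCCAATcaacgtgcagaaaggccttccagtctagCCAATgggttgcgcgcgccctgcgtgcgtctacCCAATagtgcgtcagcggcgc
Cdk1: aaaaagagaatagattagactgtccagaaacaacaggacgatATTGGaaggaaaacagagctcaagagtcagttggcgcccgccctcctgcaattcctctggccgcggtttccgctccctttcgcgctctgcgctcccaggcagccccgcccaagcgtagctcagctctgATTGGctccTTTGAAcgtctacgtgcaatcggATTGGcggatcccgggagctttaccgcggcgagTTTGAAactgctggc
Ube2c: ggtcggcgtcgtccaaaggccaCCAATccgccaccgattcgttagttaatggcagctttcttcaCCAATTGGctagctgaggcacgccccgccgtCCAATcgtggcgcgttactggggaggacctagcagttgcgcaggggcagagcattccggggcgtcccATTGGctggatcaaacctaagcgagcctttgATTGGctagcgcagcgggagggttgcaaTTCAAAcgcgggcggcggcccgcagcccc
In the Ube2c window 2 CCAAT matches on opposite strands overlap. RefSeq promoters were matched for 25 of the 31 measured cell cycle genes. Of these 21 (84%) held CCAAT within this window and 8 (32%) held TTTGAA, against 37.5% and 18.3% of the promoters of 27025 genes. The 27025 include genes that were not measured here. Every window shown holds TTTGAA, while most matched promoters of the list do not. The nearest TTTGAA lay 13 bases before the start in Cdc20, 10 in Cdk1, 24 in Ube2c and 162 in Ccnb2. These are matches of letters and not measured sites.

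Among the lower genes Cdkn1a came first. It encodes p21, an inhibitor of cyclin-dependent kinases that p53 and glucocorticoids are known to raise. It stood at 8.21 and 8.18 after PBS and at 7.54, 7.14, 7.21 and 6.69 after control siRNA. Both PBS livers lay above every control siRNA liver, which the rule required, and replicate 4 was the lowest. The difference was -1.05 (SE 0.184, 95% interval -1.45 to -0.65, adjusted p = 0.149 by limma), and its other probe set differed by -1.01. Other p53 targets did not share this direction as a list. Of 16 measured, Cdkn1a among them, 3 lay higher and 2 lower at an unadjusted p under 0.05 (2.37% and 1.94% of all genes did). Plk2 stood at 0.51, Phlda3 at 0.41 and Mdm2 at -0.06, and the median was -0.04. Mdm2 falls outside the rule and was named after its values were seen.

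Several other genes among the 12 with the lowest p on the lower side are known to respond quickly to stress or hormones. Ddit4 (REDD1), an inhibitor of mTORC1 that glucocorticoids and energy stress raise, stood at 8.47 and 8.83 after PBS and at 7.45, 6.19, 7.54 and 7.31 after control siRNA, a difference of -1.52 (SE 0.317, adjusted p = 0.388 by limma). Gadd45g, a growth arrest and stress gene, stood at 8.42 and 8.64 after PBS and at 7.79, 7.27, 7.56 and 7.34 after control siRNA (-1.04, SE 0.229). Zfp36 (tristetraprolin), which destabilises cytokine mRNAs, stood at 8.99 and 8.80 after PBS and at 8.10, 7.74, 8.27 and 7.84 after control siRNA (-0.91, SE 0.187). In all 3 genes control siRNA replicate 2 was the lowest of the 6 livers. The remaining 8 were Arrdc2 (-0.85), Arntl (-0.65), Ip6k2 (-0.64), Abtb2 (-0.91), Rfx4 (-0.79), Lrfn3 (-0.65), Mcc (-0.78) and Slc45a3 (-0.82). Other probe sets of 4 of these genes had smaller differences, some of the other sign: Ip6k2 by -0.11, Abtb2 by -0.43, Rfx4 by 0.02 and Mcc by 0.05, 0.31 and -0.03.

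The list of glucocorticoid and fasting genes holds Cdkn1a too. Of its 28 measured members 7 lay lower (1.94% of all genes did) and 2 higher, with a median of -0.13. The lower ones were Cdkn1a, the metallothioneins Mt1 (-0.63) and Mt2 (-0.94), the glucocorticoid-induced Tsc22d3 (-0.63), the insulin-repressed Igfbp1 (-0.56) and the glycogen-targeting subunits Ppp1r3b (-0.49) and Ppp1r3c (-0.68). A dimmer Mt1 probe set differed by -1.90. The higher ones were Irs2 (0.52) and Ppp1r3g, a glycogen-targeting subunit of protein phosphatase 1. Ppp1r3g passed the filter only through control siRNA arrays, which left a higher value as its likely outcome, so it is given as values and adds nothing to the count. Ppp1r3g stood at 3.16 and 2.42 after PBS and at 5.93, 4.16, 5.12 and 3.04 after control siRNA, a difference of 1.77 (SE 0.542) from PBS values below the median of the table. Replicate 4 lay between both PBS livers. The gluconeogenic Pck1 (-0.07) and Tat (-0.13) and the glucocorticoid target Fkbp5 (-0.08) had intervals that include 0. Tsc22d3, Ppp1r3b, Ppp1r3c, Pck1, Tat and Fkbp5 were named after their values were seen. Without PBS replicate 2 the count of 7 lower genes became 1, and without control siRNA replicate 2 it became 3. Of 21 immediate early genes 2 lay higher and 2 lower (2.37% and 1.94% of all genes did), with Klf10 at 0.82 and a median of -0.05.

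Genes of the circadian clock lay on both sides. In the liver the activators Arntl (BMAL1) and Clock drive Per, Cry and Nr1d genes and the output factor Dbp, and Dbp peaks at another time of day than Arntl. Dbp stood at 8.57 and 7.49 after PBS and at 9.72, 10.30, 9.90 and 9.01 after control siRNA, a difference of 1.70 (SE 0.433, 95% interval 0.77 to 2.64, adjusted p = 0.602 by limma), and its other probe set differed by 1.71. Arntl stood at 5.67 and 6.01 after PBS and at 5.20, 4.99, 5.25 and 5.34 after control siRNA, a difference of -0.65 (SE 0.149, adjusted p = 0.502 by limma). In both genes, which the rule took for groups that do not overlap, PBS replicate 2 was the farther one from the control siRNA livers. A second Arntl probe set differed by -0.26.

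Of 20 measured clock genes 7 lay higher (2.37% of all genes did) and 2 lower (1.94%) at an unadjusted p under 0.05. The higher ones were Dbp, the deubiquitinase Usp2 (0.94), the repressors Bhlhe40 (0.69), Ciart (0.56), Nr1d2 (0.50) and Per2 (0.45), and the output factor Tef (0.58). The lower ones were Arntl and Cry1 (-0.51). Intervals of Per1 (0.20), Nr1d1 (0.29), Per3 (0.33), Clock (-0.10), Nfil3 (-0.33) and Hlf (-0.19) include 0. The other Per3 probe sets differed by 0.05 to 0.59. The PBS livers themselves differed by over 1 log2 unit in Dbp. Without PBS replicate 2 a single clock gene lay higher at an unadjusted p under 0.05, and the difference of Dbp was 1.17, against 2.24 without PBS replicate 1. The hour at which each liver was taken is not given in the sources used here, so hour and injection cannot be told apart. Clock genes other than Dbp, Arntl, Cry1 and Per1 were named after their values were seen.

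**Figure D3:**
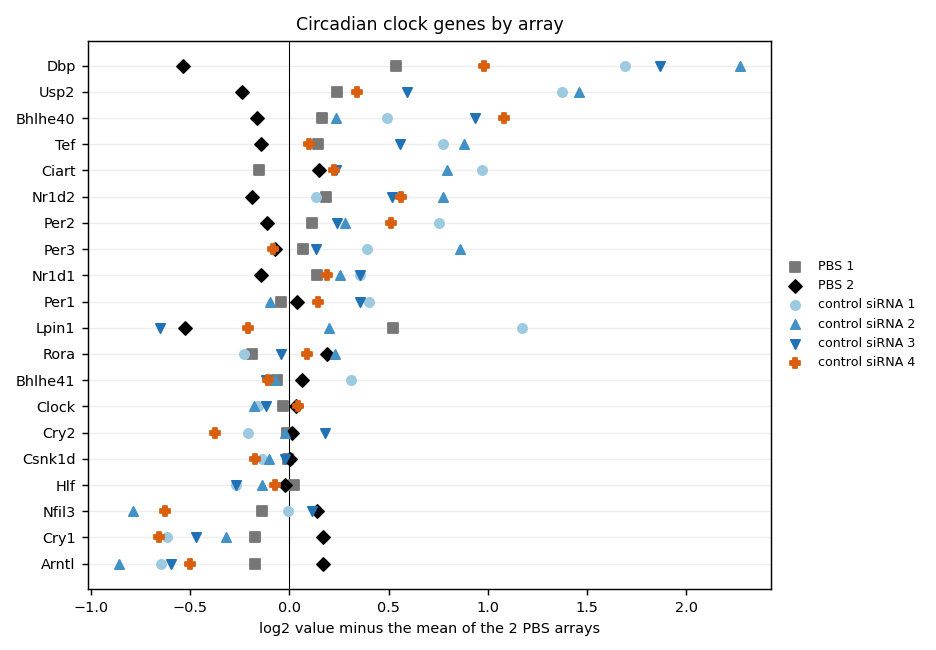
Log2 value of 20 clock genes minus the mean of the 2 PBS arrays (horizontal axis), with 1 symbol per array. Dbp, Usp2 and Bhlhe40 lie right of both PBS arrays in all 4 control siRNA arrays, and Arntl and Cry1 lie left of them.

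The repressor Ciart is shown for its promoter, since clock activators bind the E-box CACGTG. The window is chr3:95882229-95882478 (minus strand, GRCm38.p6, RefSeq), 250 bases before the start, and capitals mark CACGTG, whose 2 strands read alike.
Ciart: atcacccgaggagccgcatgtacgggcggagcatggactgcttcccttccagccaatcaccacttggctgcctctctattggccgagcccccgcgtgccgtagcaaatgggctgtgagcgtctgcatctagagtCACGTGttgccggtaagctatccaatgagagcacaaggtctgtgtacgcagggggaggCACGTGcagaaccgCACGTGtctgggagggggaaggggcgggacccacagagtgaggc
The window holds 3 such matches. Ciart stood at 4.66 and 4.96 after PBS and at 5.78, 5.61, 5.05 and 5.04 after control siRNA. Of 17 clock genes with a matched promoter 5 (29.4%) held CACGTG in this window, against 6.86% of the promoters of 27025 genes. The 27025 again include genes that were not measured here.

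Interferon-stimulated genes stood near their PBS level. Of 33 measured interferon-stimulated genes (38 listed) 1 lay higher and 0 lower at an unadjusted p under 0.05 (2.37% and 1.94% of all genes did). The median was -0.01. The higher one was Oas3, which makes an activator of RNase L, with 4.15 and 4.12 after PBS and 4.55, 4.52, 4.34 and 4.37 after control siRNA (0.31, SE 0.122, adjusted p = 0.999 by limma). Both PBS values of Oas3 lay below the filter's limit, and it passed through siRNA arrays of both kinds, which favours a higher value in it. The intervals of all 33 genes lay within 2-fold in both directions, as did those of 98.3% of all genes. Ifit1, which binds viral RNA, stood at 7.19 and 6.95 after PBS and at 7.07, 6.68, 6.78 and 6.96 after control siRNA, a difference of -0.20 (95% interval -0.63 to 0.23). The groups overlapped. The chemokine Cxcl10 differed by 0.22 (-0.32 to 0.76). Rsad2 differed by -0.25 (-0.57 to 0.06), while its dimmer probe set differed by -0.60 (SE 0.179), so the count of lower genes depends on the probe set. Isg15 was not among the measured genes. A response that had ended before day 5 would not be seen here.

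Sensors of nucleic acids gave 1 higher and 1 lower gene of 17 at an unadjusted p under 0.05 (2.37% and 1.94% of all genes did). Casp1, the protease of the inflammasome, stood at 4.02 and 3.97 after PBS and at 4.47, 4.58, 4.33 and 4.56 after control siRNA (0.49, SE 0.161). Both PBS values of Casp1 lay below the filter's limit, and it passed through siRNA arrays of both kinds, which favours a higher value in it. Eif2ak2 (PKR), a kinase that double-stranded RNA activates, stood at 6.21 and 6.34 after PBS and at 5.81, 5.99, 5.85 and 6.16 after control siRNA (-0.32, SE 0.136). Their adjusted p-values were 0.99 and 0.999 (limma). Tlr3 differed by 0.19 (95% interval -0.34 to 0.72), Tlr7 by 0.19 (-0.03 to 0.42) and Ddx58 by -0.03 (-0.35 to 0.29). The direction of the list's median (-0.03) turned with a further quantile normalization (0.02) and with the mean of all probe sets (0.04).

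The machinery that takes up the particle and uses the siRNA stood near its PBS level. Of 17 genes of RNA interference 0 lay higher and 0 lower, and Ago2, which holds the guide strand, differed by 0.01 (95% interval -0.30 to 0.33). Of 19 genes of particle and lipoprotein uptake 1 lay lower (1.94% of all genes did), the scavenger receptor Scarb1 (-0.33, SE 0.153). Apoe differed by 0.04 (-0.21 to 0.29). Of 28 lysosomal genes 0 lay higher and 0 lower at an unadjusted p under 0.05, with a median of 0.02. The Rab5 genes, which the control RNA should leave alone, differed by -0.07 (Rab5a, -0.54 to 0.39), -0.08 (Rab5b, -0.41 to 0.26) and -0.08 (Rab5c, -0.37 to 0.21).

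Acute phase genes lay lower after control siRNA on average, and the 2 PBS livers differed widely in them. Of 30 measured genes 7 lay lower (1.94% of all genes did) and 0 higher at an unadjusted p under 0.05, and the median was -0.26. A difference below 0 was found in 26 of them and in 6730 of all 12855 genes. Saa2, a serum amyloid A of the acute phase, stood at 9.97 and 13.20 after PBS and at 8.80, 9.70, 9.34 and 10.44 after control siRNA. PBS replicate 2 lay far above the other 5 livers, while PBS replicate 1 lay among the control siRNA livers. The difference was -2.02 (SE 0.732, adjusted p = 0.999 by limma), and it was -0.40 without PBS replicate 2 and -3.63 without PBS replicate 1. Lcn2 (lipocalin 2), which binds bacterial siderophores, stood at 7.40 and 11.61 after PBS and at 7.05, 8.83, 8.53 and 7.90 after control siRNA (-1.43, SE 0.978), and its difference turned to 0.68 without PBS replicate 2. Mt2, a metallothionein, stood at 10.78 and 12.36 after PBS and at 10.28, 11.08, 10.45 and 10.71 after control siRNA (-0.94, SE 0.325), and stood at -0.15 without PBS replicate 2.

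Without PBS replicate 2 no acute phase gene lay lower at an unadjusted p under 0.05 (0 of 30) and the list median was 0.02, while without PBS replicate 1 the count was 16 and the median -0.64. Saa4, a serum amyloid A made without inflammation, and Orm3, an orosomucoid, were the 2 members whose groups did not overlap. That is 6.67% of the 30, near the 6.42% of all genes that lay lower without overlap. Saa4 stood at 11.65 and 12.20 after PBS and at 11.39, 11.41, 11.18 and 11.23 after control siRNA (-0.62, SE 0.158, adjusted p = 0.602 by limma). Its dimmer probe set differed by -0.84. Orm3 stood at 5.84 and 7.13 after PBS and at 5.13, 5.41, 5.55 and 5.51 after control siRNA (-1.08, SE 0.354). No acute phase gene lay higher after control siRNA at an unadjusted p under 0.05 (0 of 30).

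**Figure D4:**
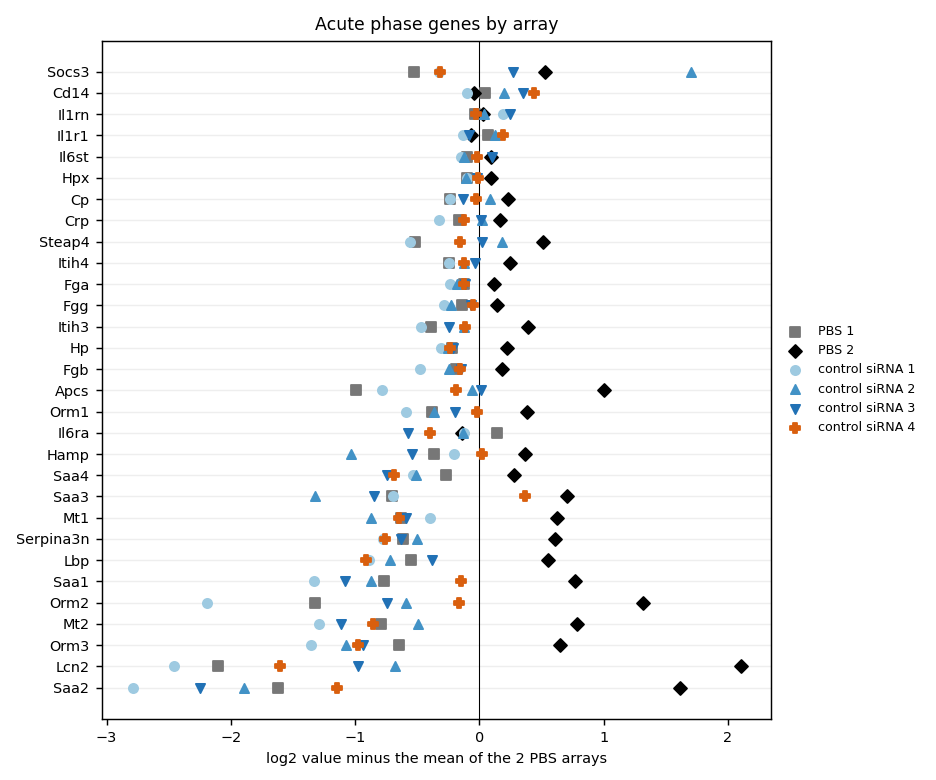
Log2 value of 30 acute phase genes minus the mean of the 2 PBS arrays (horizontal axis), with 1 symbol per array. PBS replicate 2 lies right of PBS replicate 1 in most genes, and most control siRNA values lie nearer to PBS replicate 1.

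Genes of cholesterol synthesis and of fatty acid synthesis are given apart. Of 20 genes of cholesterol synthesis, which SREBP2 is known to drive, 6 lay lower (1.94% of all genes did) and 0 higher, with a median of -0.20. Mvd, the mevalonate diphosphate decarboxylase, stood at 6.55 and 7.15 after PBS and at 5.95, 6.18, 5.65 and 6.04 after control siRNA, a difference of -0.90 (SE 0.231, adjusted p = 0.603 by limma), while its other probe set differed by -0.20. The others were Hmgcs1 (-0.65), Msmo1 (-0.55), Hsd17b7 (-0.53), Insig1 (-0.44) and Fdft1 (-0.37, with other probe sets at 0.17, 0.09 and -0.43). Without PBS replicate 2 the count of 6 became 0, and without control siRNA replicate 1 it became 3. Of 22 genes of fatty acid synthesis 4 lay higher (2.37% of all genes did) and 1 lower (1.94%), with a median of 0.14 and 3 members below 0. Besides Elovl6 these were Thrsp (Spot 14), a regulator of lipogenesis, with 9.43 and 9.05 after PBS and 9.55, 10.41, 9.96 and 10.68 after control siRNA (0.91, SE 0.293, adjusted p = 0.962 by limma; other probe sets 0.69 and -0.04), Me1 (0.44) and the desaturase Scd1 (0.35). The lower one was Agpat2 (-0.27), an acyltransferase of glycerolipid synthesis. Fasn (0.38) had an interval that includes 0, and the transcription factor Srebf1 stood at 0.00. Of 25 genes of fatty acid oxidation 0 lay higher and 2 lower, Pdk4 (-0.75, SE 0.256), a kinase that shuts off pyruvate dehydrogenase in fasting, and the thioesterase Acot3 (-0.73, SE 0.211). Hmgcs1, Msmo1, Fdft1, Scd1, Agpat2, Fasn and Srebf1 were named after their values were seen.

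Drug and bile acid metabolism gave 1 large difference. Cyp2b10, the cytochrome P450 that the receptor CAR induces, stood at 7.41 and 7.50 after PBS and at 6.40, 5.71, 5.12 and 6.51 after control siRNA. Control siRNA replicate 3 was the lowest of the 6 livers, the difference was -1.52 (SE 0.387, 95% interval -2.36 to -0.68, adjusted p = 0.602 by limma), and its other probe sets differed by -1.15 and -0.68. Of 28 measured genes of this list 2 lay lower at an unadjusted p under 0.05 (with Ahr, -0.41, other probe set -0.10) and 1 higher (Cyp1b1, 0.27). Of all genes 1.94% lay lower and 2.37% higher, and the median of the list was -0.07. Cyp1b1 lay below the filter's limit in both PBS livers and passed through siRNA arrays of both kinds, which favours a higher value in it. Arrays of both groups did not overlap for 4 lower members (6.42% of all genes), which were Cyp2b10, Cyp2c37 (-0.46), Cyp2c54 (-0.46) and Cyp2c50 (-0.22), and the intervals of these 3 Cyp2c genes, which are near copies of each other, include 0. The Cyp2c genes were named after their values were seen. Cyp3a11 differed by 0.11 (95% interval -0.18 to 0.39) and Cyp1a2 by -0.12 (-0.54 to 0.30). Of 20 bile acid genes 0 lay higher and 0 lower at an unadjusted p under 0.05. Cyp7a1, which starts the making of bile acids from cholesterol, ranged from 8.27 to 9.92 after PBS and from 7.64 to 8.83 after control siRNA (-0.61, SE 0.426).

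Heat shock genes stood out in 1 liver. Control siRNA replicate 1 had a mean level of 16 heat shock genes 0.97 above the PBS mean, whereas the other 3 control siRNA livers lay at 0.061, -0.003 and 0.222 and the PBS livers at 0.11 and -0.11. Hspa1b, an inducible HSP70, stood at 9.18 and 8.55 after PBS and at 11.85, 9.21, 8.78 and 9.63 after control siRNA, a difference of 1.01 (SE 0.594) with an interval that includes 0. Hspa1a, its near copy, stood at 3.55 and 3.63 after PBS and at 7.21, 3.70, 3.73 and 4.37 after control siRNA. Hspa1a passed the filter only through control siRNA arrays, which favoured a higher value in it and a higher level of the list. The co-chaperone Hsph1 differed by 0.72 (SE 0.391). None of the 16 lay higher at an unadjusted p under 0.05 (0 of 16). Of 27 genes of the unfolded protein response 0 lay higher and 2 lower (1.94% of all genes did), Chac1 (-0.83) and Trib3 (-0.42, other probe set -0.11).

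Markers of the liver's cell types gave few genes past an unadjusted p of 0.05, which 2.37% of all genes passed as higher and 1.94% as lower. Higher without overlap of the groups were 6 of 26 stellate cell and matrix genes (23.1%) and 5 of 24 Kupffer cell genes (20.8%). So were 3 of 21 sinusoidal endothelial genes (14.3%) and 3 of 8 pancreas and fat genes (37.5%), against 6.57% of all genes. Lower without overlap were 0, 0, 1 and 0 genes of these lists (6.42% of all genes). Of 12 hepatocyte markers 1 lay lower, Ass1 of the urea cycle (-0.68, SE 0.250), and the median was 0.00. Ass1 was read by 1 kept probe set, dim for these markers. It stood at 7.23 and 6.86 after PBS and at 6.59, 5.73, 6.39 and 6.74 after control siRNA. The same probe set counts again in the urea cycle and portal vein lists below. Kupffer cell markers had 1 of 24 higher, the Fc receptor Fcgr1 (0.34, other probe set 0.15), with a median of 0.12. Clec4f, which marks Kupffer cells, differed by 0.21 (95% interval -0.09 to 0.50) and Adgre1, another macrophage marker, by 0.33 (-0.14 to 0.79). Stellate cell and matrix genes had 1 of 26 higher, Sparc (0.34, with its other probe sets at 0.08 and -0.07), and sinusoidal endothelial genes 0 of 21. Of 9 monocyte and neutrophil genes 1 stood higher at that threshold, Mpo, but it passed the filter only through control siRNA replicates 2 and 3 (5.27 and 4.93, the other 4 livers between 3.74 and 4.08), so its higher value was favoured by the filter. None of the other 8 members did (0). Of 12 lymphocyte genes 1 lay higher, Ccl5 (0.42). Of 8 genes of pancreas and fat, tissues that can be cut with the liver, 1 lay higher, the pancreatic Clps (0.29), at values of 5.04 to 5.61. Genes of bile ducts and progenitors (7 measured), red cells and platelets (7), and mesothelium and gallbladder (7) had none at that threshold in either direction (0 of 7 in each).

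The remaining lists describe other liver functions. Their counts are at an unadjusted p under 0.05, which 2.37% of all genes passed as higher and 1.94% as lower. Of 25 genes of the urea cycle and amino acid breakdown 2 lay lower, Gldc (-0.43, SE 0.124) of glycine cleavage and Ass1, and 0 higher, with a median of -0.12. Transcription factors of the hepatocyte gave 1 higher and 1 lower of 12. Onecut1 (HNF6) stood at 6.69 and 6.38 after PBS and at 8.18, 6.56, 7.63 and 7.11 after control siRNA (0.83, SE 0.359), with replicate 2 between both PBS livers. Cebpb, which also takes part in the acute phase, stood at 11.65 and 11.75 after PBS and at 11.35, 11.17, 11.24 and 11.30 after control siRNA (-0.44, SE 0.170). Genes that males express more gave 1 higher of 18 (Ugt2b38, 0.75), genes that females express more 1 lower of 6 (Acot3), and the growth hormone and IGF list 1 higher (Irs2) and 1 lower (Igfbp1) of 16. Of 15 genes of the zone around the central vein 1 lay lower, the Wnt receptor Lgr5 (-0.37), and of 13 of the zone around the portal vein 1 lay lower, Ass1. Of 27 coagulation and other secreted proteins and of 19 complement genes 0 lay higher and 0 lower. Of 13 cytokine and NF-kB genes Ccl5 lay higher and Nfkbia (-0.42), the inhibitor of NF-kB, lower. Of 11 genes used as references 1 lay higher, Gusb (0.32).

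**Figure D5:**
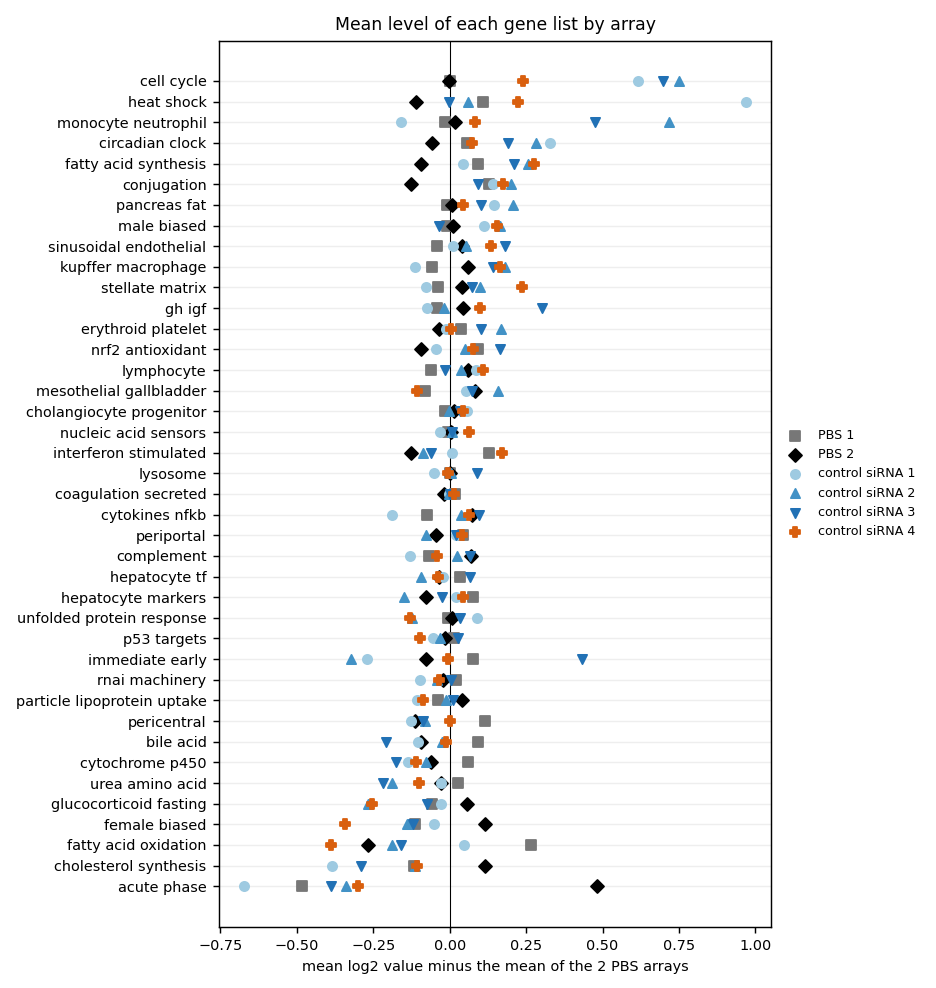
Mean log2 value of each gene list minus the mean of the 2 PBS arrays (horizontal axis), with 1 symbol per array. The cell cycle list is higher in all 4 control siRNA arrays, the heat shock list stands out in control siRNA replicate 1, and the acute phase list separates the 2 PBS arrays.

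Rab5 siRNA livers give a second set of values for the same genes. The comparisons share the control siRNA arrays, and the genes were chosen for their difference from PBS, which favours opposite signs, so the values are set side by side only and nothing is read from the signs. Cdc20 differed by 1.83 for control siRNA minus PBS and by 2.37 for Rab5 siRNA minus control siRNA, Ccnb2 by 1.73 and 2.47 and Gstm3 by 1.58 and 2.31. Cdkn1a differed by -1.05 and 2.63, Dbp by 1.70 and -1.95, Arntl by -0.65 and 0.90, Elovl6 by 0.91 and -0.71, Thrsp by 0.91 and -1.96 and Mvd by -0.90 and 1.38.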

How the data were processed

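RNA of 10 livers was measured on 1-colour arrays, of which 2 PBS and 4 control siRNA arrays were compared. The deposited values are log2 expression values; per the submitters' processing notes, Affymetrix Expression Console, RMA and Partek 6.6 were used, with no order given. RMA equalises the arrays' distributions, so a shift of all transcripts would not be seen, and it compresses dim values. Gene names came from the platform annotation (1 symbol for 34945 probe sets, several for 932, none for 9160) and were updated through RefSeq (GRCm38.p6). No detection calls, scan dates or batches are given in the sources used here, and the 64 control probe sets were left out.

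Probe sets above the table's median (4.33) in at least 2 of all 10 arrays were kept, and the one with the highest mean stood for its gene. The linear model of limma 3.58.1 (lmFit, eBayes; R 4.3.3) held 1 mean for each of the 3 groups and used all 10 arrays, so that Rab5 siRNA arrays add to the estimate of spread, and p-values were adjusted over 12855 genes (Benjamini-Hochberg). The scripts were tested on simulated data. The comparison and the 41 gene lists (929 entries, 830 on the array, matched by exact symbol) were chosen with earlier results of these data known. Genes were named by rule: called genes, the 12 lowest p on each side and the 6 largest differences on each side among genes whose groups do not overlap (unnamed transcripts passed over), the 3 lowest p of each list, the Rab5 genes and a fixed set. Alternatives were other filters, normalizations, choices of probe set and fits, a replicate block and leaving out each array.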

Additional observations from a re-analysis of the deposited data

Results flagged for a closer look

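Of 192 named genes and lists, 11 had 1 control siRNA liver far from the other 3, by Dixon's test of the gap over the range at its 95% level. Chance gives about 1 in 20 such groups. PBS, with 2 arrays, could not be examined this way.

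Replicate 4 stood low in Ccnb2 (4.06, the others 5.44 to 5.69) and Mki67 (4.52, the others 5.48 to 5.58). Replicate 1 stood low in Elovl6 (8.13, the others 8.49 to 8.52) and in the mean level of the Kupffer cell list (-0.11 from the PBS mean, the others 0.14 to 0.18). Replicate 2 stood low in Ddit4 (6.19, the others 7.31 to 7.54) and the periportal list (-0.08, the others 0.02 to 0.04). It stood high in Sp5 (5.28, the others 4.64 to 4.72), a Wnt target, in the monocyte receptor Ccr2 (5.67, the others 5.11 to 5.13) and in Clec4f (9.32, the others 9.19 to 9.20). Replicate 3 stood low in Cyp7a1 (7.64, the others 8.65 to 8.83) and high in the lysosomal protease Ctsz (10.74, the others 10.33 to 10.40).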

How the results depend on the processing

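The count of called genes was 0 as reported, 2 after quantile normalization (Gstm3 and Elovl6), 3 with array weights (also Cdca5), 1 with the replicate block (Gstm3, 1.63, adjusted p = 0.0111 by limma) and 0 to 18 when each array was left out. It was 0 with the 6 arrays fitted alone, other filters, median centring, other choices of probe set, an intensity trend with robust fitting, or every kept probe set. Of 151 named genes 132 kept their sign under every setting run. Of 450 list medians under other settings 432 moved by less than the spread between replicates, and of 246 with an array left out 225 did.

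Genes higher at an unadjusted p under 0.05 numbered 480 with no filter, 136 with a filter at the 75th percentile, 494 with the block, 548 over single probe sets and 220 to 349 with an array left out. Lower ones numbered 660 with the block, 517 over single probe sets and 207 to 306 with an array left out. At least 2-fold higher were 21 single probe sets, and 13 to 22 genes with an array left out. Lower were 14 single probe sets, 13 genes with the block, and 7 to 29 with an array left out. Leaving out arrays gave 11 to 18 cell cycle, 1 to 8 clock and 0 to 2 interferon-stimulated genes higher, and 0 to 8 cholesterol, 0 to 16 acute phase and 1 to 6 glucocorticoid genes lower. The block gave 16 acute phase genes, quantile normalization 4 glucocorticoid genes and the 75th percentile 0 interferon-stimulated genes. The cause was not tested.

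Among lists, these medians moved by more than the spread between replicates. With quantile normalization the sensors stood at 0.0184, RNA interference at -0.014 and coagulation at 0.0132. With median centring the sensors stood at -0.0601, coagulation at -0.0549 and bile duct genes at 0.00599. With the mean of probe sets the sensors stood at 0.0447 and bile duct genes at 0.085, and with the most variable probe set p53 targets at 0.0242 and mesothelium at 0.19. With the filter at the 75th percentile female-biased genes stood at -0.275, lymphocytes at 0.304 and pancreas and fat at 0.065, and with the filter over 6 arrays bile duct genes at 0.0946. With the block the sensors stood at -0.0749, P450s at 0.0264, p53 targets at -0.103 and lymphocytes at 0.15.

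With an array left out the medians ranged as follows. Acute phase lay from -0.636 to 0.0221, cholesterol synthesis from -0.34 to -0.0315, fatty acid oxidation from -0.342 to 0.216, and the clock from 0.113 to 0.279. Sensors lay from -0.0393 to 0.0126, complement from -0.0933 to 0.0752, uptake from -0.0827 to -0.0118, bile acids from -0.127 to 0.107 and P450s from -0.1 to 0.0168. Conjugation lay from -0.0497 to 0.211, p53 targets from -0.0992 to 0.0163, female-biased genes from -0.287 to 0.0855 and pericentral genes from -0.148 to 0.0376. Coagulation lay from -0.0254 to 0.00575, lymphocytes from -0.00239 to 0.131 and mesothelium from -0.0544 to 0.166.

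Arrays with the same number deviated from their group means with r = 0.178 and 0.198 for PBS and control siRNA, 0.207 and 0.076 for PBS and Rab5 siRNA, and 0.391, 0.149, 0.186 and 0.312 for control siRNA and Rab5 siRNA. The groups compared share only 2 numbers, and 1 of the values lay under 0.1, so the numbers were not taken as pairs and the replicate block stayed an alternative.

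With 2 PBS arrays the median unadjusted 95% interval of a difference reached 0.31 on either side. After adjustment over all genes a difference of 1.83 (Cdc20) was not called.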
